A study of Drosophila melanogaster with 38 samples.

Results

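Female flies kept through adult life on restricted food (RF) were compared with females kept on control food (CF), using the 12 pairs of arrays that were collected at the same hour from 2 to 72 hours. These 24 arrays, 12 of each cohort, were chosen by their labelled diet and hour alone and are part of a series of 38 arrays. Of 18769 probe sets, 9420 were tested, those whose score averaged 6 or more on the log2 scale. The flies were Canton-S, a wild-type laboratory strain of Drosophila melanogaster, held at 25 °C with 12 hours of light a day, and they were 40 days old when sampling began. CF held 150 g of sucrose and 150 g of yeast per litre and RF held 50 g of each, with 20 g of agar per litre in both. Each array carried total RNA of head and thorax pooled from at least 75 females, and females had lived with males in the vials. Another cohort was switched from CF to RF at 40 days, and it enters here only through the joint adjustment of p values. Every array of a diet came from 1 ageing cohort, with 1 array per diet and hour. The p values therefore measure the spread between samples taken from these cohorts over 3 days and say nothing about the spread between cohorts.

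Dietary restriction, a cut in nutrients short of starvation, lengthens life in many animals, and in flies it is commonly done by diluting yeast and sugar. Nutrient state in the fly is relayed by insulin-like peptides from neurosecretory cells of the brain and by secretions of the fat body, the organ that combines roles of liver and adipose tissue. The midgut takes up the food, secretes digestive enzymes and shields its cells with the peritrophic matrix, a sheath of chitin and protein.

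The arrays had medians over all probe sets from 5.84 to 6.13. The authors' quantile normalisation brings such medians together, so they say nothing about the quality of the RNA. Markers of head and thorax were well above the filter on each of the 24 arrays, at list means of 8.89 to 10.19 for 8 head genes and 9.12 to 10.49 for 6 thorax genes. Transcripts of the ovary, an abdominal organ, were present as well, since the mean of 14 eggshell genes ran from 9.67 to 12.41 in CF and from 9.64 to 12.11 in RF. CG12374 and other genes of digestive enzymes were bright too, and which part of the gut their RNA came from was not tested. Of 13 genes of the male list on the array, only svp passed the filter, a gene that is not limited to males and that the list took in by mistake. The pair at 0 hours, which served as a hold-out, stood apart from the others. Its eggshell means were 7.94 in CF and 5.63 in RF, and the means of 33 digestive serine proteases were 10.10 and 9.72, where the lowest of the 24 other arrays was 10.43. Its head means of 10.43 in CF and 10.71 in RF and its thorax means of 10.86 and 11.01 were above those of all 24 other arrays. In bulk tissue, fewer cells of a type and less RNA per cell cannot be told apart.

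A probe set was called where limma, fitted to the 12 pairs with the hour as a block, gave an adjusted p under 0.05 by the Benjamini-Hochberg method. Of the 9420 probe sets tested, 699 (7.42%) were called, 449 (4.77%) higher and 250 (2.65%) lower in RF. The differences were small for most, with a median of 0.34 on the log2 scale among the rises and -0.31 among the falls, and 111 of the 699 were under 0.2 in size. All 12 pairs had the same sign for 277 of the 699 calls. More than 2-fold changes were found for 13 rises and 14 falls. Taken with 1 probe set for each of the 7826 genes tested, 7.85% were called, 5.07% higher and 2.77% lower, and these are the shares against which counts of genes in a list are to be read. For 16 calls the mean of 1 cohort was under the filter of 6, so that the size of the difference is uncertain. Named here, these are Alp8, lab and CG33093 in CF and CG9733, Zip42C.1, CG16723, CG32751 and Try29F in RF. Of the 654 calls with a gene name, 419 were still called when any 1 of the 12 hours was left out.

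**Figure D1:**
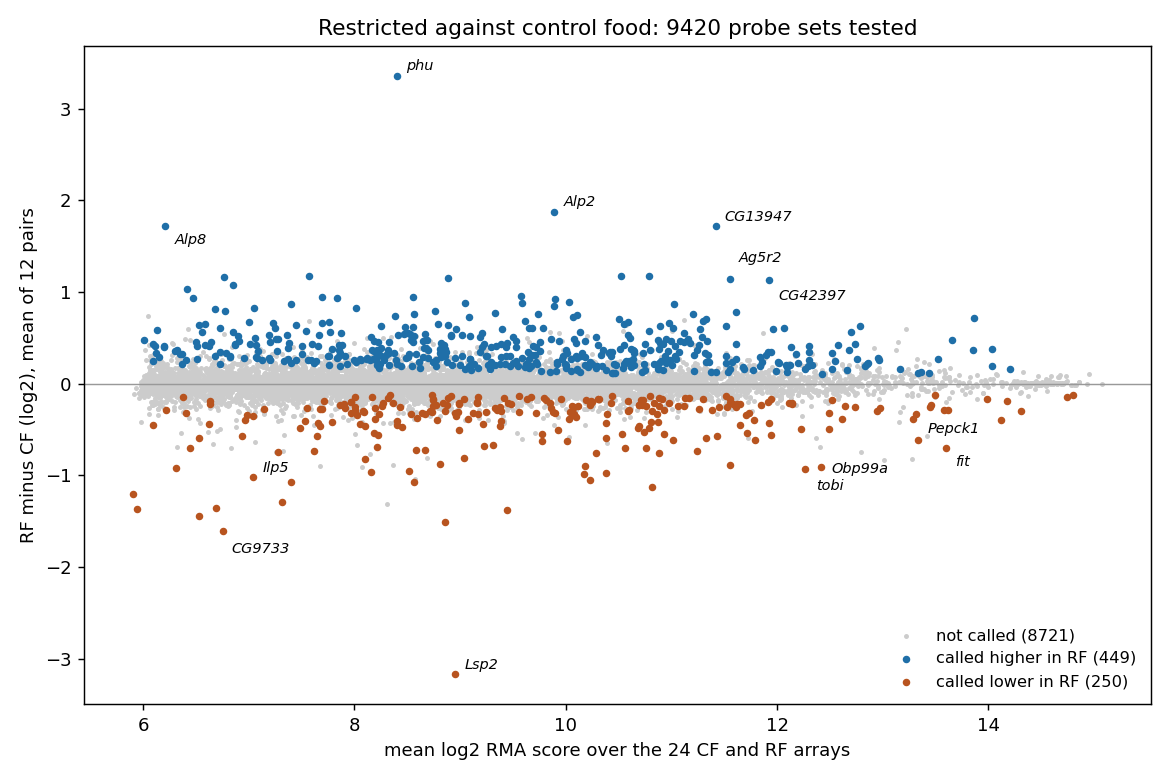
RF minus CF difference (log2, mean of 12 pairs) of each of the 9420 tested probe sets against its mean log2 RMA score over the 24 arrays. The 449 calls higher in RF are blue, the 250 lower in RF orange and the others grey, and the differences run from -3.17 for Lsp2 to 3.36 for phu.

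The cohorts did not overlap at all for 9 probe sets (0.0955% of those tested), with every RF array on 1 side of every CF array. Of these, 3 were lower in RF, Lsp2, Zip42C.1 and Mal-A4. The other 6 were higher, namely Alp2, CG1698, Ag5r2, CG42397, Peritrophin-15a and CG9084. The distance from the nearest RF array to the nearest CF array was 1.02 for Lsp2, 0.52 for CG42397, 0.46 for CG1698 and 0.42 for Ag5r2, and it was 0.24 or less for the rest. The number of such probe sets was 19 without 24 hours, 18 without 12, 17 without 2 or 4 and 16 without 6 or 72 hours, and leaving out a pair can only keep or raise it.

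**Figure D2:**
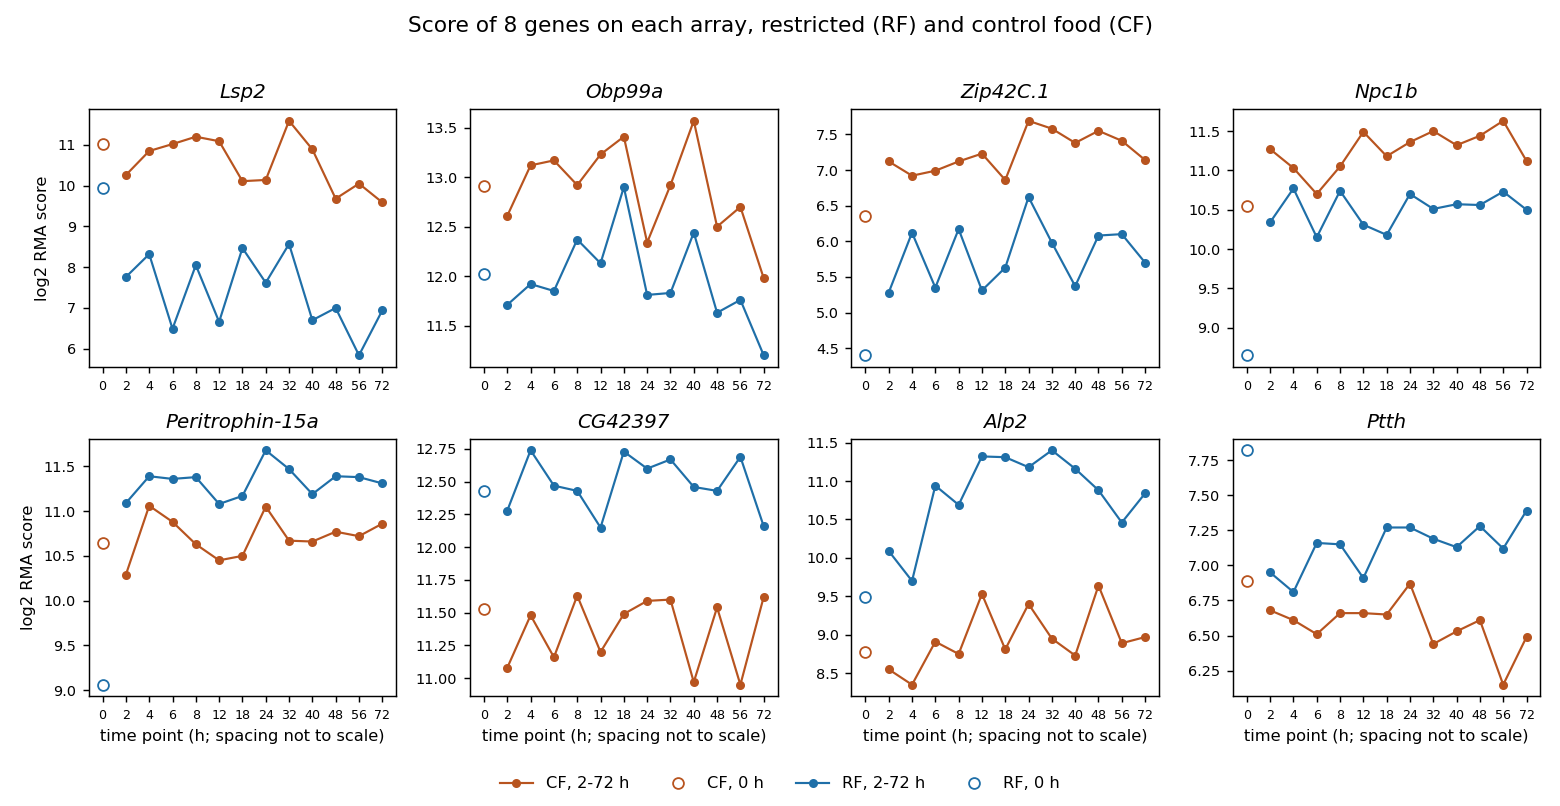
Log2 RMA score of 8 genes on every array of CF (orange) and RF (blue) by hour, with filled points for the 12 pairs compared and open points for the held-out 0 hour pair. Every panel keeps the cohorts on opposite sides at each of the 12 hours, while Peritrophin-15a at 0 hours lies on the other side.

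The 0 hour pair, which no fit used, had the same sign as the 12 pairs for 529 of the 699 calls (75.7%, exact binomial 95% interval 72.3 to 78.8, which treats probe sets as independent and covers counting error only). Among probe sets that were not called the share was 62.7%. Of the 250 falls, 234 (93.6%) were negative at 0 hours, against 65.9% of the probe sets with a negative difference that were not called. Of the 449 rises, 295 (65.7%) were positive at 0 hours, against 58.6% of those with a positive difference that were not called. Rises with the opposite sign at 0 hours included midgut genes, such as the serine protease gene Jon44E at -3.85, the proton pump gene Vha100-4 at -1.95 and the lining gene Peritrophin-15a at -1.58. Across all 9420 probe sets 55.0% were negative at 0 hours. These 2 arrays had lower eggshell and protease levels and higher head and thorax levels, and the part of this in the result was not tested.

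**Figure D3:**
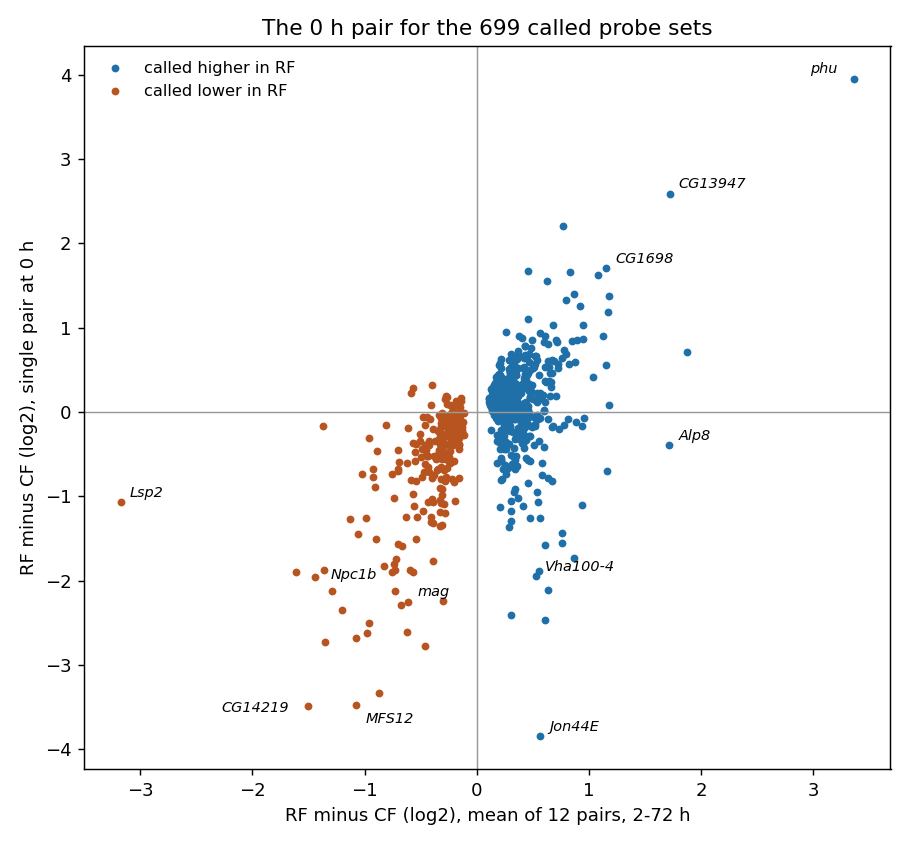
RF minus CF (log2) in the single 0 hour pair against the mean of the 12 pairs at 2 to 72 hours, for the 699 called probe sets. The falls (orange) lie mostly below 0 on the vertical axis, 234 of 250, and the rises (blue) divide into 295 above and 154 at or below it.

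The larval storage protein genes Lsp2 and Lsp1beta and the secreted protein genes fit and Obp99a were lower in RF. The levels of Lsp2, the gene of a hexamer that larvae stockpile as an amino acid reserve, ran from 5.84 to 8.57 (median 7.31) in RF and from 9.59 to 11.59 (median 10.56) in CF, so that the cohorts were apart at every hour. The RF minus CF difference was -3.17 (SE 0.24, adjusted p = 1.11e-05). Lsp1beta, a second larval hexamer gene, scored from 7.60 to 9.79 (median 8.73) in RF and from 9.06 to 11.35 (median 10.44) in CF, lower in RF in 11 of 12 pairs, with a difference of -1.37 (SE 0.18, adjusted p = 6.31e-04). It was named after its values were seen, since the platform table leaves its probe set without a gene, and at 0 hours it was nearly level at -0.17. The yolk protein genes had smaller differences, at -0.01 for Yp1, -0.15 for Yp2 and -0.12 for Yp3. Of these Yp1 was not called (adjusted p = 0.906), while Yp2 lost its call without 6, 18, 32, 40, 48 or 56 hours and Yp3 without 6, 18, 24, 32, 40, 48 or 56 hours (adjusted p up to 0.0644). Yp2 and Yp3 had means of 14.67 to 14.86 in both cohorts, near the highest of any probe set tested (15.08), where arrays compress differences, so that small values there do not show stable levels. Of the storage protein and yolk list of 4 genes tested, 3 fell (75%, against 2.77% of all genes tested called lower) and 0 rose, with a median of -0.13 beside -0.01 over all 7826 genes tested, and only Lsp2 fell without the pairing or without 6, 18, 32, 40, 48 or 56 hours.

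Among other secreted proteins, fit, a female-enriched fat body signal of the head that restrains feeding on protein, scored from 12.40 to 13.96 (median 13.30) in RF and from 13.61 to 14.20 (median 13.91) in CF, lower in RF in 12 of 12 pairs (difference -0.70, SE 0.095, adjusted p = 8.00e-04). Obp99a, a member of the odorant binding protein family, scored from 11.20 to 12.90 (median 11.84) in RF and from 11.98 to 13.57 (median 12.92) in CF. Its ranges overlapped and both cohorts swung with the hour, yet RF lay below CF in every pair, and the difference of -0.91 (SE 0.075, adjusted p = 2.17e-05) was one of the most regular of all. Its relative Obp99b had a larger mean difference of -1.31 but was not called (adjusted p = 0.0929). Fst (Frost), a gene known for its induction on recovery from cold, scored from 9.67 to 10.76 (median 10.19) in RF and from 10.49 to 12.95 (median 11.33) in CF, lower in RF at every hour, with a difference of -1.13 (SE 0.16, adjusted p = 9.98e-04). Of 8 tested genes on the list of odorant and sex-related fat body secretions, which holds fit, Obp99a and Obp99b, 2 fell (25%, against 2.77% of all genes) and 1 rose (12.5%, against 5.07%), with 4 positive and 4 negative differences and a median of 0.00. The rise was CG14400, which scored from 9.27 to 10.26 (median 9.73) in RF and from 8.83 to 9.71 (median 9.14) in CF, higher in RF in 12 of 12 pairs (difference 0.51, SE 0.083, adjusted p = 0.00323). At 0 hours the differences of Fst, Obp99a and fit were -1.27, -0.89 and -0.68.

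Of the insulin list, Ilp5, ImpL2 and Ilp2 were lower in RF, the last with a call that depended on single hours. Ilp5, made by insulin-producing cells of the brain, scored from 5.98 to 7.14 (median 6.44) in RF and from 6.98 to 8.30 (median 7.55) in CF, lower in RF in 12 of 12 pairs with overlapping ranges (difference -1.02, SE 0.12, adjusted p = 3.69e-04). Ilp2 of the same cells had a difference of -0.54 (SE 0.13, adjusted p = 0.0299), and its call ended without 2, 6, 8, 18, 48 or 72 hours (adjusted p up to 0.0635), without the pairing by hour and at 24 to 72 hours alone. The insulin-binding protein gene ImpL2 changed by -0.57 (SE 0.088, adjusted p = 0.00225), lower in RF in 11 of 12 pairs, through a probe set that may detect related transcripts. The fat body glucosidase gene tobi, a known target of insulin and glucagon-like signals, scored from 11.17 to 12.44 (median 11.81) in RF and from 12.38 to 13.06 (median 12.69) in CF, with a difference of -0.93 (SE 0.089, adjusted p = 6.13e-05). Of 22 tested genes of insulin, TOR and sugar sensing, 4 fell (18.2%, against 2.77% of all genes tested called lower) and 0 rose, with 8 positive and 14 negative differences and a median of -0.05, the fourth being Mondo at -0.13, whose call ended on leaving out any hour except 12 (adjusted p up to 0.116). That count was 2 without 2, 6, 8, 18, 48 or 72 hours, without the pairing and at 24 to 72 hours alone. The receptor gene InR, the adaptor gene chico, the kinase genes Akt and S6k and the transcription factor gene foxo were not called, with differences from -0.09 to 0.12. The other genes among the 22 tested were not called either. The list held 31 genes, and those beyond the 22, other insulin-like peptides included, had no probe set under the annotation used and were not analysed.

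The sterol and fat handling genes Npc1b, mag and Hr96 were lower in RF. Npc1b, the gene of a midgut protein needed to absorb sterols, scored from 10.15 to 10.77 (median 10.54) in RF and from 10.70 to 11.63 (median 11.29) in CF. Its ranges overlapped only slightly, RF was lower at all 12 hours, and the difference was -0.75 (SE 0.077, adjusted p = 1.01e-04). It was named after its values were seen, as its probe set lacks a gene in the platform table. The lipase gene mag (magro), whose product acts on triglycerides and cholesterol esters in the gut, scored from 10.18 to 11.18 (median 10.73) in RF and from 10.78 to 11.78 (median 11.49) in CF, lower in 12 of 12 pairs (difference -0.61, SE 0.10, adjusted p = 0.00256). Hr96, the gene of a nuclear receptor that binds cholesterol and is known to control mag, changed by -0.31 (SE 0.059, adjusted p = 0.00824), lower in 11 of 12 pairs, and this call ended without the pairing by hour.

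Members of the Niemann-Pick type 2 family, small sterol-binding proteins counted on the lipid storage list, were called in both directions. Npc2d changed by -0.63 (SE 0.11, adjusted p = 0.00544) and Npc2f by -0.46 (SE 0.084, adjusted p = 0.00639), each lower in 12 of 12 pairs. In the other direction Npc2g changed by 0.31 (SE 0.051, adjusted p = 0.00378), Npc2h by 0.36 (SE 0.079, adjusted p = 0.0202) and Npc2b by 0.25 (SE 0.055, adjusted p = 0.0221), higher in 12, 11 and 11 of 12 pairs. Npc2h lost its call without 56 hours (adjusted p = 0.0502) and Npc2b without 24, 40, 56 or 72 hours (adjusted p up to 0.0557). Npc2a and Npc2e were not called. At 0 hours the falling members were lower by more, -1.24 for Npc2d and -2.78 for Npc2f, and Npc1b and mag stood at -1.89 and -2.25, while Npc2g was at 0.04.

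Other genes of fat handling come from the lipid lists. CG5966, a gene of the lipase family, scored from 9.29 to 10.40 (median 9.68) in RF and from 9.99 to 11.23 (median 10.66) in CF, lower at every hour, with a difference of -0.99 (SE 0.11, adjusted p = 2.62e-04). Lip2 changed by -0.59 (SE 0.082, adjusted p = 0.00107). Dgat2, which encodes an enzyme of the last step of triglyceride synthesis, scored from 6.29 to 7.61 (median 6.99) in RF and from 6.89 to 8.21 (median 7.69) in CF, lower in 12 of 12 pairs (difference -0.74, SE 0.079, adjusted p = 1.66e-04), and Agpat2, an acyltransferase of an earlier step, changed by -0.33 (SE 0.062, adjusted p = 0.00828). The malic enzyme gene Men, a source of NADPH for fat synthesis, changed by -0.49 (SE 0.053, adjusted p = 1.87e-04). Fatty acid synthase gene FASN3 and the long-chain acyl-CoA synthetase gene bgm went the other way, at 0.30 (SE 0.060, adjusted p = 0.0111) and 0.33 (SE 0.044, adjusted p = 6.48e-04), and the call of FASN3 ended without the pairing. Of 28 tested genes of lipid storage, lipases and lipoproteins, 6 fell (21.4%, against 2.77% of all genes) and 3 rose (10.7%, against 5.07%) with a median of -0.04, and the 3 rises were 1 without 56 hours or without the pairing. The lipophorin gene apolpp and the droplet genes Lsd-1 and Lsd-2 were not called, with differences of -0.09, -0.14 and -0.14. Fatty acid and triglyceride synthesis had 3 rises and 3 falls among 15 genes tested (20% each), with 8 positive and 7 negative differences and a median of 0.01. Fatty acid beta-oxidation had 2 rises (10%) and 4 falls (20%) among 20 genes, with a median of -0.075.

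All called genes of the midgut lining list were higher in RF. CG42397, which was counted in the list of peritrophic matrix and chitin genes, scored from 12.15 to 12.74 (median 12.47) in RF and from 10.95 to 11.63 (median 11.48) in CF. The cohorts were fully apart and the difference was 1.13 (SE 0.086, adjusted p = 1.05e-05), a ratio of RF to CF of 2.18. The peritrophic matrix protein genes Peritrophin-15a and Peritrophin-15b differed by less but very regularly. Peritrophin-15a scored from 11.08 to 11.68 (median 11.37) in RF and from 10.29 to 11.06 (median 10.70) in CF (difference 0.61, SE 0.044, adjusted p = 6.12e-06), and Peritrophin-15b scored from 8.53 to 9.26 (median 8.99) in RF and from 7.95 to 8.79 (median 8.39) in CF (difference 0.55, SE 0.039, adjusted p = 6.12e-06). Every pair was higher in RF for both, yet at 0 hours they differed by -1.58 and -1.07, and with that pair added as a 13th neither was called. Of 38 tested genes of the peritrophic matrix, mucins and chitin, 8 rose (21.1%, against 5.07% of all genes tested called higher) and 0 fell. These included the mucin gene Muc68E at 0.69 (SE 0.085, adjusted p = 4.39e-04), higher in 11 of 12 pairs, CG4835 at 0.87 (SE 0.12, adjusted p = 7.16e-04) and CG6933 at 0.94 (SE 0.13, adjusted p = 0.00101). The median of the list was 0.09, and 22 of its 38 differences were positive.

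Genes of digestive proteases rose in part along with those of the lining. Of 33 genes on the list, 11 rose (33.3%, against 5.07% of all genes) and 1 fell (3.03%, against 2.77%), and at 24 to 72 hours alone 7 rose and 2 fell. One of the 11, LManV, is a mannosidase gene that the list held by mistake. Ser8 scored from 6.92 to 9.08 (median 8.28) in RF and from 5.76 to 8.85 (median 6.90) in CF, higher in RF at every hour with broad overlap (difference 1.18, SE 0.16, adjusted p = 9.51e-04). Jon25Bii scored from 9.64 to 11.18 (median 10.46) in RF and from 8.64 to 10.17 (median 9.52) in CF (difference 0.92, SE 0.16, adjusted p = 0.00452), and Jon66Ci changed by 0.88 (SE 0.17, adjusted p = 0.00831), both losing the call at 24 to 72 hours alone. The Jonah genes are close copies of one another, so that signal may be shared between their probe sets. The trypsin gene Try29F went the other way, scoring from 5.46 to 6.44 (median 5.77) in RF and from 6.14 to 7.85 (median 6.82) in CF, lower in all pairs (difference -0.92, SE 0.16, adjusted p = 0.00541). Its mean in RF was under the filter, so the size of its difference is uncertain. The trypsin genes alphaTry, betaTry, epsilonTry, thetaTry, zetaTry and etaTry were not called, with differences from -0.12 to 0.22.

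Of 45 other peptidase genes, 10 rose (22.2%, against 5.07% of all genes) and 5 fell (11.1%, against 2.77%), with a median of -0.02. CG12374, a gene of the carboxypeptidase group on this list and among the brightest of the array, scored from 13.73 to 14.43 (median 14.25) in RF and from 13.11 to 13.92 (median 13.44) in CF and was higher in RF in 12 of 12 pairs (difference 0.71, SE 0.067, adjusted p = 5.79e-05). CG14820 scored from 8.28 to 9.26 (median 8.68) in RF and from 7.56 to 8.68 (median 7.98) in CF (difference 0.73, SE 0.063, adjusted p = 2.64e-05), also without an exception. The falls were led by CG7025 at -0.72 (SE 0.095, adjusted p = 6.81e-04). The falls numbered 3 without 18 or 24 hours, at 24 to 72 hours alone and without the pairing, and the rises 5 without the pairing. Across the 12 pairs the mean of the digestive serine proteases was higher in RF in 11, with differences from -0.04 to 0.56, and at 0 hours the difference was -0.38.

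A few further genes mark regions or cell types of the gut, and lab, Sox100B, esg and mex1 were picked out from the calls with their values known. No list of midgut markers was set and uncalled ones were not gathered. These genes therefore do not show how midgut markers changed as a set. The homeobox gene lab (labial), which specifies the acid-secreting copper cells of the middle midgut, scored from 5.99 to 6.86 (median 6.40) in RF and from 5.43 to 6.08 (median 5.91) in CF, higher in RF in 12 of 12 pairs (difference 0.58, SE 0.073, adjusted p = 4.51e-04). With a mean under the filter in CF, lab was tested only through its level on the other arrays, and the size of its difference is uncertain. Vha100-4, a subunit gene of the vacuolar proton pump with strong midgut expression, scored from 8.77 to 9.68 (median 9.39) in RF and from 8.57 to 9.22 (median 8.78) in CF, again higher in all 12 (difference 0.53, SE 0.066, adjusted p = 4.95e-04), and with the 0 hour pair added it was not called. Of 20 genes of the vacuolar proton pump, 2 rose (10%, against 5.07% of all genes) and 0 fell, and Vha100-4 was joined by Vha14-1 at 0.11. The rises numbered 1 without the pairing and on leaving out any hour except 4 or 12. The transcription factor genes Sox100B and esg, the latter a marker of intestinal stem cells, changed by 0.36 (SE 0.067, adjusted p = 0.00747) and 0.26 (SE 0.061, adjusted p = 0.0296), and mex1, a gene of midgut enterocytes, by 0.36 (SE 0.056, adjusted p = 0.00219). Of these genes lab, Vha100-4, Sox100B, esg and mex1 had the opposite sign at 0 hours, from -1.95 for Vha100-4 to -0.06 for mex1, and Sox100B, esg and mex1 were not called without the pairing. The call of esg also ended without 8, 12, 24, 32, 40 or 56 hours (adjusted p up to 0.07).

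**Figure D4:**
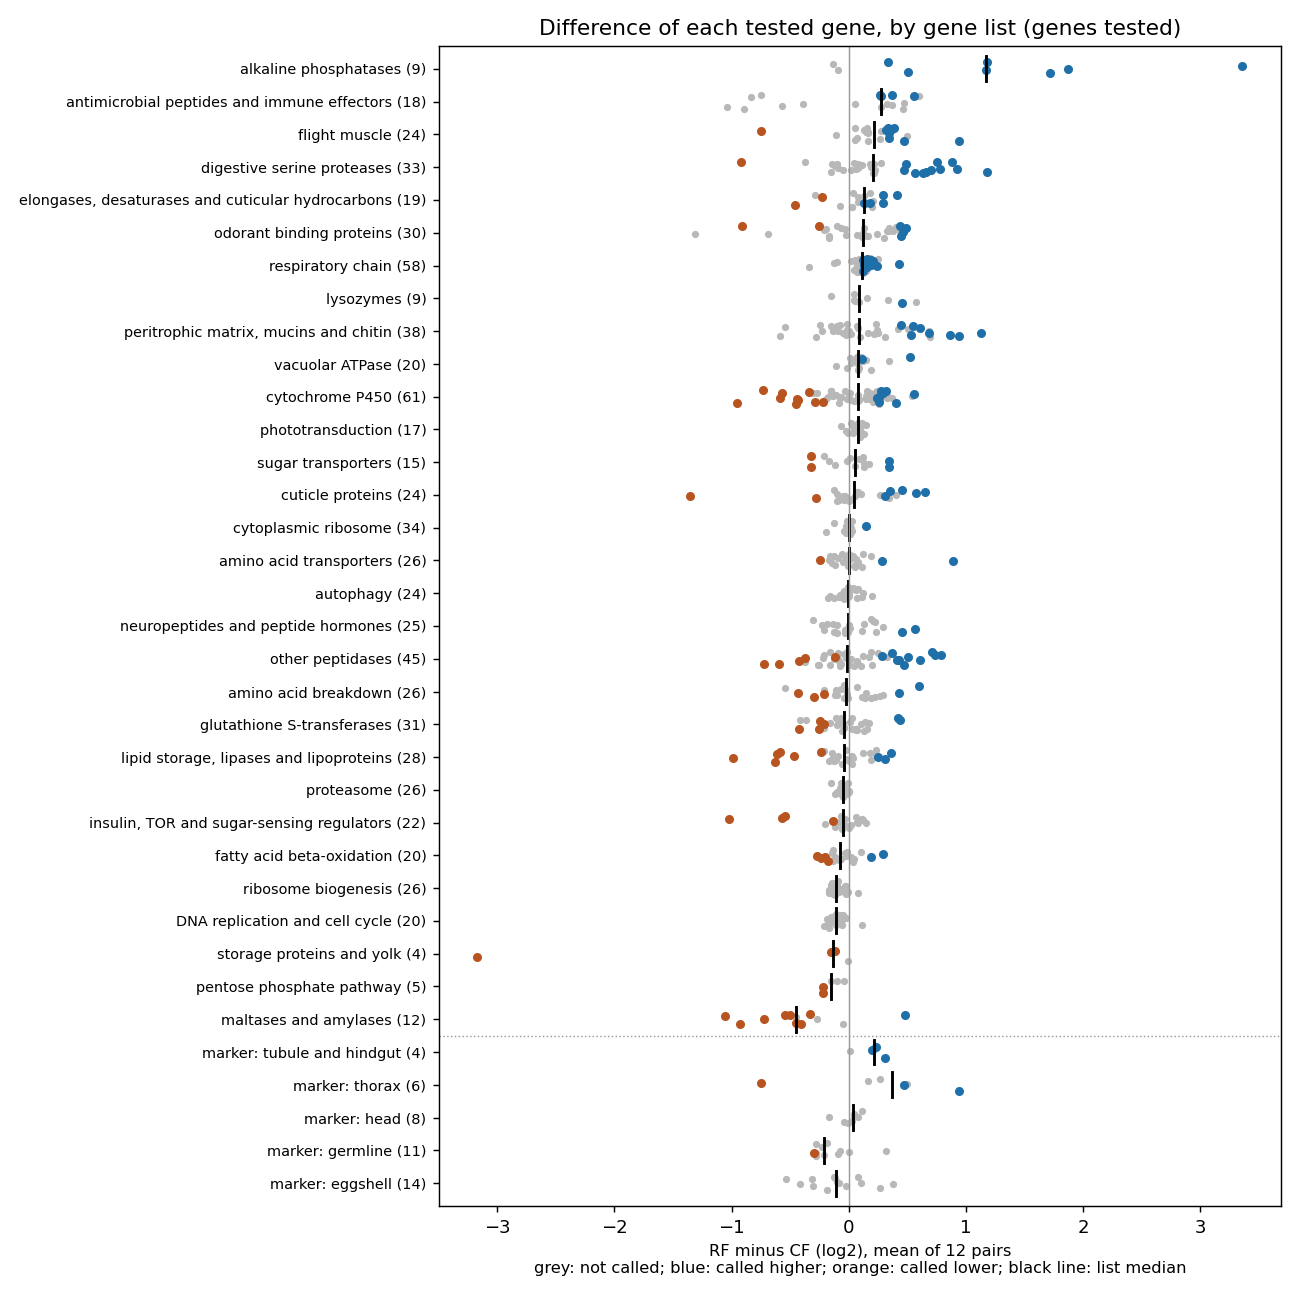
RF minus CF (log2, mean of 12 pairs) of every tested gene in 30 functional lists and 5 marker lists, with the number tested in brackets, called genes in blue (higher in RF) or orange (lower) and the list median as a black line. Alkaline phosphatases stand highest with a median of 1.17 and maltases lowest with -0.45, while the genes of the proteasome, ribosome biogenesis and DNA replication cluster just below 0 with no call.

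The alkaline phosphatases, a family that includes enzymes of gut and tubule membranes, held the strongest rises. Of 9 genes tested, 7 rose (77.8%, against 5.07% of all genes) and 0 fell, and of the 8 whose mean was 6 or more in both cohorts 6 rose. At 2 to 18 hours alone 3 were called. The mean of the 9 was higher in RF in 12 of 12 pairs, by 0.63 to 1.59. The levels of phu ran from 8.05 to 11.15 (median 10.10) in RF and from 5.40 to 8.18 (median 6.68) in CF, higher in RF in 11 of 12 pairs with a slight overlap (difference 3.36, SE 0.38, adjusted p = 2.67e-04). Alp2 scored from 9.70 to 11.40 (median 10.91) in RF and from 8.35 to 9.64 (median 8.90) in CF, with no overlap between cohorts (difference 1.88, SE 0.11, adjusted p = 4.06e-06). Alp10 scored from 10.84 to 11.66 (median 11.42) in RF and from 9.51 to 10.97 (median 10.33) in CF, and Alp9 scored from 10.58 to 11.39 (median 11.23) in RF and from 9.24 to 10.93 (median 9.95) in CF. Both were higher in RF at every hour with some overlap, at 1.18 (SE 0.10, adjusted p = 2.50e-05) and 1.17 (SE 0.12, adjusted p = 7.73e-05). Alp8, at a mean under the filter in CF, passed through its level in RF. Its scores ran from 5.07 to 8.84 (median 7.03) in RF and from 4.65 to 6.53 (median 5.27) in CF, higher in RF at every hour, and the size of its difference is uncertain. At 0 hours phu, Alp9 and Alp10 were higher in RF by 3.95, 1.18 and 1.38, and Alp8 was at -0.40.

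Genes of enzymes that split sugars mostly fell. Mal-A4, a maltase gene, scored from 9.26 to 10.08 (median 9.76) in RF and from 10.31 to 11.03 (median 10.79) in CF with no overlap (difference -1.06, SE 0.12, adjusted p = 1.90e-04). Of 12 maltase and amylase genes 8 fell (66.7%, against 2.77% of all genes) and 1, Mal-B2, rose, with a median of -0.45 and a list mean lower in RF in 12 of 12 pairs. Mal-A3 changed by -0.73 (SE 0.11, adjusted p = 0.0019) and Mal-A8 by -0.55 (SE 0.069, adjusted p = 5.26e-04), while Mal-A5, at -0.05, was not called. Of the pentose phosphate pathway, which supplies NADPH, 2 of 5 genes fell, Taldo at -0.22 (SE 0.042, adjusted p = 0.0107) and CG8036 at -0.22 (SE 0.047, adjusted p = 0.0183), and neither was called without the pairing or at 24 to 72 hours alone. Pepck1, of gluconeogenesis, scored from 12.39 to 13.54 (median 12.99) in RF and from 13.16 to 13.96 (median 13.72) in CF, lower at every hour (difference -0.61, SE 0.071, adjusted p = 2.88e-04). It was the only call among 11 genes of gluconeogenesis, glycogen and trehalose, with 6 positive and 5 negative differences and a median of 0.01. Glycolysis had 1 rise (9.09%, against 5.07% of all genes) and 0 falls among 11 genes, the rise being Hex-C at 0.25. The call of Hex-C ended without the pairing and without 2, 8, 24, 32, 40, 48, 56 or 72 hours (adjusted p up to 0.0728).

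Single transporter genes were called in both directions. The levels of Zip42C.1, a zinc transporter gene, ran from 5.28 to 6.62 (median 5.84) in RF and from 6.86 to 7.70 (median 7.18) in CF, with no overlap (difference -1.44, SE 0.10, adjusted p = 6.12e-06). The mean of Zip42C.1 in RF was under the filter, so the size of the difference is uncertain. Among 30 genes of zinc, copper and iron handling it was the only fall, and Alas, of haem synthesis, was the only rise at 0.17, a call that ended without the pairing, at 24 to 72 hours alone and after centring of the arrays. CG8785, on the list of amino acid transporters, scored from 9.85 to 10.86 (median 10.50) in RF and from 9.13 to 10.09 (median 9.57) in CF, higher in RF in all 12 pairs (difference 0.89, SE 0.071, adjusted p = 1.55e-05). The trehalose transporter gene Tret1-1 changed by 0.35 (SE 0.075, adjusted p = 0.0181). Of 15 sugar transporter genes 2 rose and 2 fell (13.3% each, against 5.07% and 2.77% of all genes). These falls became 1 without 6, 18, 24, 32, 40 or 72 hours and 0 without the pairing. Of 26 amino acid transporter genes 2 rose (7.69%) and 1 fell (3.85%), which is near the shares of all genes. Among genes outside the lists, named after their values were seen, the transporter genes Picot at 0.47 (SE 0.040, adjusted p = 2.64e-05), Smvt at 0.44 (SE 0.083, adjusted p = 0.00785) and CNT2 at 0.46 (SE 0.089, adjusted p = 0.0102) were higher in RF, the last 2 not without the pairing or at 24 to 72 hours alone.

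Detoxification genes were called in both directions. Of 61 cytochrome P450 genes 8 rose (13.1%, against 5.07% of all genes) and 10 fell (16.4%, against 2.77%), with a median of 0.08. Cyp4e3 scored from 7.49 to 8.45 (median 8.09) in RF and from 8.16 to 10.03 (median 8.91) in CF, lower in all pairs (difference -0.96, SE 0.15, adjusted p = 0.00287), and Cyp4d14 changed by -0.73 (SE 0.089, adjusted p = 3.99e-04), Cyp6w1 by -0.59 (SE 0.082, adjusted p = 0.00101) and Cyp4s3 by -0.57 (SE 0.064, adjusted p = 2.48e-04). Cyp4e1, close in name to Cyp4e3, was higher in RF in 12 of 12 pairs, from 7.70 to 8.37 (median 7.99) in RF and from 7.25 to 7.96 (median 7.41) in CF (difference 0.56, SE 0.055, adjusted p = 7.73e-05). The 8 rises were 4 without 32 or 72 hours and 5 without 2, 6, 8, 18, 40 or 48 hours, and without the pairing the counts were 2 and 5. Of 31 glutathione S-transferase genes 2 rose (6.45%) and 4 fell (12.9%), GstE7 by -0.42 (SE 0.054, adjusted p = 5.41e-04) and, in the other direction, GstE4 by 0.42 (SE 0.076, adjusted p = 0.0066).

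MsrA, which encodes a methionine sulfoxide reductase that repairs oxidized protein, scored from 9.80 to 10.90 (median 10.25) in RF and from 10.42 to 11.77 (median 10.90) in CF. It was lower in RF in 12 of 12 pairs (difference -0.70, SE 0.065, adjusted p = 4.99e-05) and by nearly the same at 0 hours (-0.70). It was the only called gene among 14 of antioxidant defence. It also stands on the ecdysone and juvenile hormone list under an old name, where it was 1 of 3 falls (13.6%, against 2.77% of all genes) among 22 genes.

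Among genes of amino acid breakdown, hgo and Hpd rose and Oat was the most regular of 3 falls. In tyrosine breakdown hgo, the gene of homogentisate dioxygenase, scored from 9.05 to 10.96 (median 9.97) in RF and from 8.90 to 10.17 (median 9.28) in CF (difference 0.60, SE 0.10, adjusted p = 0.004), higher in RF in 10 of 12 pairs. Hpd, of the step before it, changed by 0.43 (SE 0.10, adjusted p = 0.0335), and its call ended without 2, 6, 8, 18, 24, 32, 40, 48, 56 or 72 hours (adjusted p up to 0.0777), and neither was called without the pairing. Faa and Tat of the same pathway, at 0.29 and 0.27, were not called. Oat, the ornithine aminotransferase gene, scored from 9.87 to 10.52 (median 10.15) in RF and from 10.38 to 10.92 (median 10.60) in CF, lower in 12 of 12 pairs (difference -0.43, SE 0.050, adjusted p = 2.88e-04). Of 26 genes of the list, 2 rose (7.69%, near the 5.07% of all genes) and 3 fell (11.5%, against 2.77%), and the rises numbered 4 without 12 hours, 3 without 4 hours and 1 without any other single hour.

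Some genes of the respiratory chain and of flight muscle rose in RF, while other mitochondrial lists had few calls. Of 58 respiratory chain genes 13 rose (22.4%, against 5.07% of all genes) and 0 fell, with a median of 0.12, and 55 differences were positive. The count was 7 without 2 hours, 6 without 8, 24, 32, 40, 56 or 72 hours and 5 without 18 or 48 hours, and 8 without the pairing or with centred arrays. The negative ones among the 58 were UQCR-11L, ATPsynbeta and ATPsynC, at -0.34, -0.13 and -0.10, none of them called. Mitochondrial ribosomal protein genes, 69 in number, had a median of 0.03, with only mRpS7 called. The citrate cycle list of 14 genes had a median of -0.03, and its only call, a fall, was Men. The mitochondrial import list of 12 genes had 0 calls, with 6 positive and 6 negative differences.

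Of 24 flight muscle genes 8 rose (33.3%, against 5.07% of all genes) and 1 fell (4.17%, against 2.77%), with a median of 0.22. TpnC4, the gene of a troponin C of the flight muscle, scored from 8.10 to 9.65 (median 9.04) in RF and from 7.20 to 8.64 (median 8.10) in CF, higher in 11 of 12 pairs (difference 0.94, SE 0.13, adjusted p = 8.00e-04). Act88F, the actin gene of the indirect flight muscle, went against the rest. Its levels ran from 9.05 to 10.51 (median 10.04) in RF and from 9.39 to 11.58 (median 10.72) in CF, lower in RF in 11 of 12 pairs (difference -0.75, SE 0.14, adjusted p = 0.00875) and at 0 hours (-0.74), but the call ended without the pairing and at 24 to 72 hours alone. Tm2 changed by 0.38 (SE 0.082, adjusted p = 0.0176), and up, the troponin T gene, by 0.47 (SE 0.10, adjusted p = 0.0224) with the call lost without 18, 24, 32, 40, 56 or 72 hours (adjusted p up to 0.0562). The 8 rises were 4 without 24, 32 or 40 hours and 5 without 2, 18, 56 or 72 hours.

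The muscle list and the ovary lists moved with the hour within each cohort. The pairs with the lowest muscle difference, -0.23 at 4 hours and -0.19 at 12 hours, were those in which the eggshell mean was higher in RF by the most, 2.10 and 1.02. At 32 hours, with an eggshell difference of -1.58, the muscle difference was 0.55. Other pairs did not keep this order. At 8 hours the eggshell difference was -1.09 and the muscle difference 0.02, and at 40 hours they were 0.28 and 0.51. The low pairs were not particular to muscle. The mean of the head markers differed by -0.59 at 4 hours, -0.59 at 12 hours and 0.34 at 32 hours. With the eggshell mean as a covariate, 9 muscle genes were called higher and 1 lower. In all 902 probe sets were then called, 571 higher and 331 lower, and none of the 140 genes chosen by the naming rule lost its call. Those genes had been picked among the calls of the main fit. The covariate holds only the mean of 14 eggshell genes, and the part of ovary or other tissue in the calls was not tested.

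**Figure D5:**
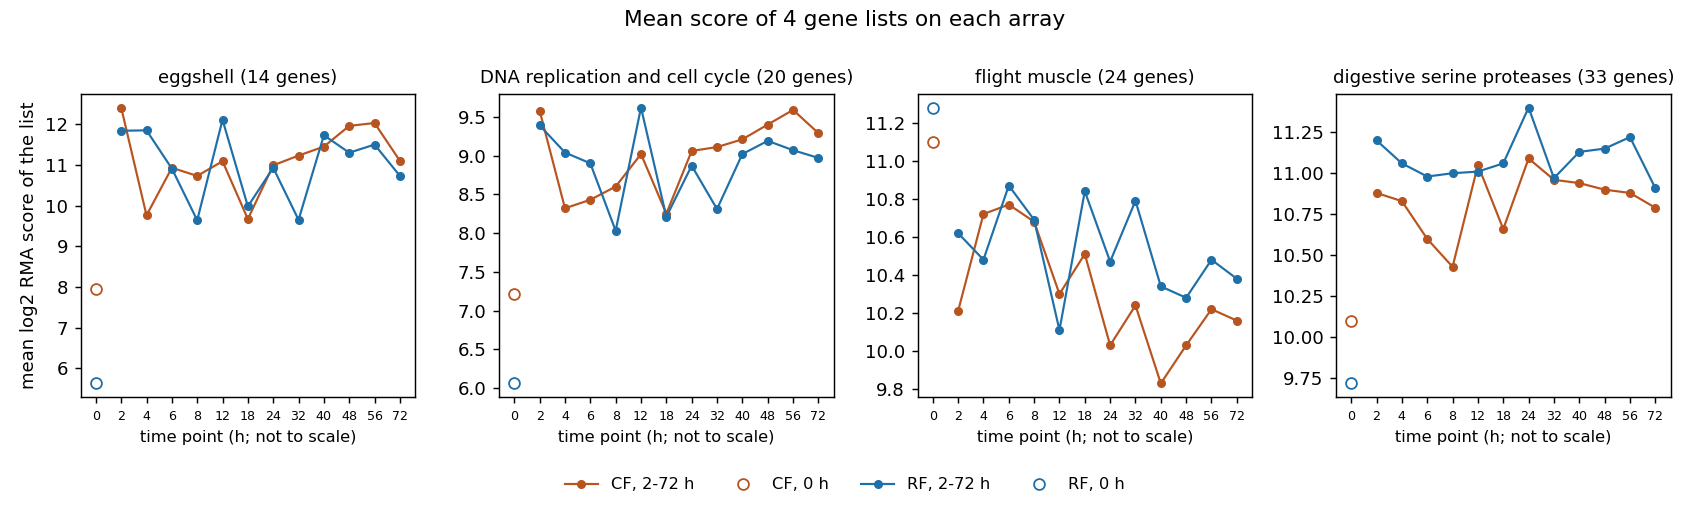
Mean log2 RMA score of 4 gene lists on every array of CF (orange) and RF (blue), with open points for the 0 hour pair. The eggshell and DNA replication means vary from hour to hour in both cohorts, and the protease mean is higher in RF in 11 of the 12 pairs. The open points of the eggshell, replication and protease panels lie below all filled points, and those of the muscle panel lie above them.

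Of the lists for brain and sense organs, those of neuropeptides, ion channels and odorant binding proteins held calls. Ptth, the gene of prothoracicotropic hormone, a brain peptide known for driving ecdysone synthesis before moulting, scored from 6.81 to 7.39 (median 7.15) in RF and from 6.15 to 6.87 (median 6.61) in CF, higher in RF in 12 of 12 pairs and at 0 hours (difference 0.56, SE 0.069, adjusted p = 4.00e-04). The leucokinin gene Lk, of a peptide that acts on feeding and water balance, changed by 0.46 (SE 0.081, adjusted p = 0.00561) and lost its call without the pairing. These were the only calls among 25 neuropeptide genes (8% rose, against 5.07% of all genes), whose median was -0.01. The rises numbered 4 without 12 hours and 9 at 24 to 72 hours alone. Of 22 ion channel genes 2 rose (9.09%) and 0 fell, with 0 rises without the pairing and 9 at 24 to 72 hours alone. Of 30 odorant binding protein genes 4 rose (13.3%, against 5.07% of all genes) and 2 fell (6.67%, against 2.77%). The rises were lush, which serves the response to a male pheromone, at 0.48 (SE 0.10, adjusted p = 0.014), a5, Os-C and Obp69a, and none of these 4 was called without the pairing, nor Os-C and Obp69a with the 0 hour pair added. The count of rises was 2 without 2 hours and 1 without 8, 18, 24, 32, 40, 48 or 72 hours. Genes of phototransduction (17), synaptic transmission (19) and the circadian clock (11) had no call, with medians of 0.08, 0.06 and -0.01. The means of all these lists moved with the hour, lower in RF at 4 and 12 hours and higher at 32 hours. For synaptic transmission these differences were -0.61, -0.53 and 0.45.

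Of 18 immune effector genes 4 rose (22.2%, against 5.07% of all genes) and 0 fell, with 12 positive and 6 negative differences. The Bomanins, short peptides induced by Toll signalling, had positive differences in all 8 members tested, and 4 of them rose. BomT2 scored from 12.59 to 13.26 (median 12.96) in RF and from 11.90 to 13.22 (median 12.27) in CF, higher in 11 of 12 pairs (difference 0.56, SE 0.10, adjusted p = 0.0068), and BomS4 changed by 0.27 (SE 0.048, adjusted p = 0.0056). BomBc2 and BomS6 were the others, and their calls ended without 6 or 7 of the 12 hours, among them 6, 24, 32, 40 and 56 (adjusted p up to 0.067). The antimicrobial peptide genes AttD, CecB, Drs, DptB, Mtk and Def had negative differences, from -1.04 for AttD to -0.39 for Def, and make up all the negative members, none of them called (adjusted p from 0.0653 to 0.6). The other 4, Drsl2 at 0.47, Drsl5 at 0.32, Drsl4 at 0.26 and IM33 at 0.06, were positive and not called. These groups were made after the values were seen. The count of 4 rises was 7 without 12 hours and 2 without 6, 32, 40 or 56 hours or without the pairing. Of 37 genes of immune recognition and signalling, NimC3 was the only call, a rise of 0.26 that ended without 9 of the hours (adjusted p up to 0.0919).

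Cuticle protein genes gave 5 rises (20.8%, against 5.07% of all genes) and 2 falls (8.33%, against 2.77%) of 24. Cpr49Ac scored from 5.14 to 7.25 (median 6.03) in RF and from 6.49 to 8.32 (median 7.37) in CF, lower in all 12 pairs (difference -1.35, SE 0.17, adjusted p = 4.11e-04), and Cpr97Eb changed by 0.45 (SE 0.085, adjusted p = 0.00755). The 5 rises were 2 without 24, 32 or 56 hours or without the pairing and 3 without 72 hours. Enzymes of very long lipids, which include those of cuticular hydrocarbons, gave 5 rises (26.3%) and 2 falls (10.5%) of 19. The elongase gene eloF changed by 0.30 (SE 0.040, adjusted p = 8.08e-04) and CG6660 by 0.41 (SE 0.051, adjusted p = 4.23e-04), whereas CG5326 changed by -0.46 (SE 0.056, adjusted p = 4.02e-04), with its other probe set at -0.40. The list took in EloB, a gene of the elongin complex and not an elongase, among its rises.

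Several of the largest changes lie in genes with no role stated in the sources used here. CG9733 scored from 5.11 to 6.84 (median 5.92) in RF and from 5.71 to 8.82 (median 7.82) in CF (difference -1.61, SE 0.24, adjusted p = 0.00155), and CG14219 scored from 7.39 to 9.19 (median 8.04) in RF and from 8.55 to 10.29 (median 9.73) in CF (difference -1.51, SE 0.22, adjusted p = 0.00125), each lower in RF in at least 11 of 12 pairs. CG13947 scored from 11.59 to 12.98 (median 12.31) in RF and from 9.51 to 11.63 (median 10.28) in CF, higher in RF at every hour with a ratio of 3.29, through a probe set that may detect related transcripts. CG1698 scored from 9.10 to 10.04 (median 9.41) in RF and from 7.94 to 8.64 (median 8.41) in CF, with no overlap and a ratio of 2.22. Ag5r2, of the antigen 5 family of secreted proteins, scored from 11.89 to 12.52 (median 12.00) in RF and from 10.07 to 11.47 (median 11.18) in CF, with a ratio of 2.22 and no overlap. The most regular fall, by the ratio of difference to SE, was that of CG32444, whose levels ran from 11.03 to 12.10 (median 11.43) in RF and from 11.37 to 12.80 (median 12.05) in CF. Its ranges overlapped and both cohorts moved with the hour, but RF was lower in 12 of 12 pairs and the difference was -0.62 (SE 0.039, adjusted p = 4.06e-06). CG7381 followed among the falls with -0.73 (SE 0.051, adjusted p = 6.12e-06). By the same ratio Alp2 and CG1698 were the most regular rises, followed by CG34288 with 0.62 (SE 0.042, adjusted p = 6.12e-06). CG7381 and CG34288 each had 12 of 12 pairs on 1 side.

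The other large rises were CG34005 at 1.16, CG31259 at 1.08, CG33093 at 1.04, CG31446 at 0.96 and CG8708 at 0.95. The other large falls were CG16723 at -1.36, CG32751 at -1.20, CG14205 at -0.98 and CG15534 at -0.96. CG33337 at -1.07 and MFS12 at -1.07 belonged to them as well, though their calls ended without 5 hours (18, 32, 40, 48 and 72) and on leaving out any hour except 4, 6 or 12, with adjusted p up to 0.0694 and 0.0834. At 0 hours CG14219, MFS12, CG33337 and CG14205 were lower in RF by more, from -3.49 for CG14219 to -2.63 for CG14205.

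Lists of general cell functions had no call or few. Ribosome biogenesis (26 genes), DNA replication and the cell cycle (20), the proteasome (26), aminoacyl-tRNA synthetases (30), translation factors (40), autophagy (24), folding in the endoplasmic reticulum (30) and heat shock proteins (10) each had 0 calls. The first 3 had medians of -0.11, -0.11 and -0.05, with 1 positive difference in each. The means of these lists varied with the hour, and the replication mean differed between cohorts from -0.80 at 32 hours to 0.72 at 4 hours. At 24 to 72 hours alone 12 replication genes and 4 of ribosome biogenesis were called lower. The cytoplasmic ribosome, 34 genes, had a median of 0.00 and its only call was RpL24-like, a gene of ribosome assembly, at 0.15.

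Of the few tubule and hindgut markers tested most rose in RF, in calls that depended on the pairing, while the eggshell and germline lists held 1 call. Of 14 eggshell genes 0 were called, with a median of -0.11 and a list mean higher in RF in 4 of 12 pairs. Of 11 germline genes 1, aub, was called, at -0.30, and the call ended without 8 of the hours (2, 8, 18, 24, 32, 40, 56 and 72, adjusted p up to 0.0819). Only bam was positive. Of 4 tubule and hindgut markers 3 rose (75%, against 5.07% of all genes), Irk3 at 0.31 (SE 0.049, adjusted p = 0.00256), Oatp58Dc at 0.24 (SE 0.051, adjusted p = 0.0187) and NKCC at 0.20, none of them called without the pairing. With the 0 hour pair added Irk3, Oatp58Dc and aub were not called. The call of NKCC also ended without 8, 12, 24, 32, 40, 48, 56 or 72 hours (adjusted p up to 0.072). The mean of the 4 tubule and hindgut markers ran from 9.15 to 9.69 in CF and from 9.42 to 9.93 in RF and was higher in RF in 10 of 12 pairs. At 0 hours it went the other way, with 9.79 in CF and 9.50 in RF. The part of these organs in the alkaline phosphatase and midgut results was not tested.

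Whether the difference between the cohorts was called as changing over the 3 days depended on the 8 hour pair. Taken as a test of 2 to 18 hours against 24 to 72 hours, 0 of 9420 probe sets (0%) were called by limma, and 2043 had an unadjusted p under 0.05. The count was 624 without the 8 hour pair, 164 of them with a higher and 460 with a lower difference late. Lsp2 differed by -3.13 early and -3.21 late, Peritrophin-15a by 0.61 and 0.61, and CG42397 by 1.13 and 1.13. Wider gaps, such as -1.38 and -0.66 for Ilp5 or 1.33 and 2.11 for CG13947, did not pass either. Taken on their own, the 6 early pairs gave 17 calls and the 6 late pairs 1723, with the same number of arrays.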

How the data were processed

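Total RNA was hybridised to Affymetrix Drosophila 2.0 arrays, and the deposited values are log2 scores per probe set, which the authors computed with RMA (background correction, quantile normalisation across arrays and summary of the probes). A difference of 1 is a 2-fold change, low scores understate changes, and the number of arrays, 1 per cohort and hour, limits the precision. Each cohort was mapped to its arrays through the labels.

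Control probe sets (183) were left out, and those that averaged 6 or more over the 36 arrays at 2 to 72 hours were tested. RF minus CF was fitted with limma 3.58.1 in R 4.3.3 with the hour as a block, and p values of the 3 contrasts among the cohorts were pooled for Benjamini-Hochberg adjustment, with calls under 0.05. The pairing follows the collection hour in the labels and the paired design of the study's methods. Deviations of arrays of the same hour from their cohort means had a median correlation of 0.51 (-0.09 to 0.69), over 0.1 in 10 of 12 pairs. The fitting steps were tested on simulated data.

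Gene symbols came from the platform annotation, updated through gene identifiers: 13543 probe sets matched 1 current symbol, 103 kept an old one, 402 had several and 4721 none. For a gene with several probe sets the brightest was used. Overlapping or related transcripts cannot always be told apart. No sequence was used here.

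Genes were named by a rule. It takes the 15 largest rises and 15 largest falls with 1 symbol, the 5 rises and 5 falls with the largest moderated t, and up to 4 calls of each list. Others were chosen after their values were seen. The members and the 56 functional and 7 marker lists were chosen with earlier results of these data known. A few lists took in genes that do not belong, by an old or other name (LManV, EloA, EloB, app, dco, kcc, Cat, svp), and are counted as listed. Alternatives were the fit without pairing, without each hour, other filters, adjustment alone, the methods' paired t-test, centred arrays, array weights, early or late hours alone, the 0 hour pair added, an eggshell covariate and a single fit of 3 cohorts.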

Additional observations from a re-analysis of the deposited data

How the results depend on the processing

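The count of calls was 699 (449 higher, 250 lower). Without the pairing by hour, that is with no replicate block, it was 338 (212 and 126), with array weights 1556 (955 and 601), at 2 to 18 hours alone 17 (12 and 5) and at 24 to 72 hours alone 1723 (949 and 774). The causes were not tested, although each part alone has 6 pairs. Leaving out 1 hour gave 497 (without 56 hours) to 816 (without 4 hours), higher 307 to 551 and lower 179 to 265. The other settings gave 566 to 929, the former from a single fit of 3 cohorts and the latter from adjusting this contrast alone. Centring each array gave 398 higher and 271 lower.

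Probe sets with no overlap numbered 9 (without 40 hours) to 19 (without 24 hours), against 9 with all pairs. For the change between early and late hours 0 probe sets were called, and 624 without 8 hours. The 0 hour share of 75.7% was 75.0% to 78.4% under 5 other settings.

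Of the 140 genes chosen by the rule, 13 kept their call in every setting and 79 in every setting except 2 to 18 hours alone. No direction reversed. Without the pairing 46 were not called, at 24 to 72 hours alone 23, with no filter 16 and with the eggshell covariate or array weights 0. Leaving out 1 hour ended 4 (without 4 hours) to 27 (without 40 hours) of the calls. With 1 array per hour and 1 cohort per diet, no difference under 0.11 on the log2 scale was called.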
